A study of Mus musculus with 2 samples.

Results

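The genes described here are 10 mouse genes of ATP release and of signalling by ATP and adenosine outside the cell, *Calhm1*, *Panx1*, *Entpd2*, *Nt5e*, *Acpp*, *P2rx4*, *P2rx7*, *P2ry1*, *P2ry2* and *Adora2b*. The list was made from known roles, with no limit on a measured value, and all 10 had a row in a table of 18498 rows, of which 18043 carried a gene symbol. The table compared tongue tissue with and without taste buds, in order to find genes expressed in the taste tissue of the posterior tongue. The CvP library came from circumvallate papillae, the trench-shaped structures at the back of the tongue whose walls hold taste buds. The Epi library came from tongue epithelium that has no papillae. Both tissues were taken from male C57BL/6J mice aged 12 to 30 weeks on normal chow, and the RNA of at least 20 mice was pooled for each library. Each tissue therefore had 1 library, no replicate spread could be measured, and no p-value was calculated. The study states, for its RT-PCR, that the CvP tissue held epithelium around the taste buds as well, and a pool of mice says nothing of the variation among them.

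Taste cells pass their signal to the nerve with ATP. Type II cells, which detect sweet, bitter and umami compounds, release ATP through a large-pore channel formed by CALHM1 with its partner CALHM3, and the ATP opens P2X2 and P2X3 receptors on the taste nerve. Glia-like type I cells carry the ectonucleotidase NTPDase2 (*Entpd2*), which clears the ATP to ADP. Ecto-5'-nucleotidase (*Nt5e*) and prostatic acid phosphatase (*Acpp*) turn AMP into adenosine, which acts on A2B receptors (*Adora2b*), while P2Y receptors respond to ATP, ADP and UTP.

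Levels are given as RPKM, the reads on the exons of a gene divided by exon length in kilobases and by the number of mapped reads in the library, as the authors deposited them. The depth read from the lowest values of the table was about 28367954 mapped reads in the CvP against 27899370 in the Epi. From these, reads per gene were estimated, and all intervals below are exact 95% intervals for counting error only, which do not cover differences among mice or preparations. The CvP values were higher for most genes of the table. Over the 10363 rows with an RPKM of at least 1 in both libraries, the median CvP/Epi ratio was 1.31, and 77.2% of the 17580 rows with a symbol and a value above 0 had the higher RPKM in the CvP.

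The tissue labels were checked with marker genes. Of 8 markers of type II cells, 7 had a CvP/Epi ratio above 3. *Gnat3*, the taste G protein gustducin, had an RPKM of 127 against 0.03, and the only marker of the list that did not pass, *Itpr3*, had 30.1 against 21.9. All 8 markers of sour-sensing type III cells passed, led in the CvP by *Pkd1l3* at 47.6 against 0.40 and in the Epi by *Chga* at 5.39 against 0.61. Keratins and loricrin of stratified epithelium were abundant in both libraries, with a summed RPKM of 32419 in the CvP against 82659 in the Epi, and *Krt13* led both. None of these 6 genes had a ratio above 3 and 3 had one below 1/3. All 6 markers of skeletal muscle were below 1/3, with a summed RPKM of 2.96 in the CvP against 44.9 in the Epi, and *Acta1* was the highest in both. Of 5 salivary gland markers 2 were above 3, among them *Pigr* at 12.0 against 0.54, and 3 below 1/3, among them *Lipf* at 1.96 against 313. Of 6 fibroblast markers 1 was above 3 and 4 were below 1/3, with *Dcn* the highest at 26.1 against 128. Of 5 markers of glia and nerve 3 were above 3, with summed values of 11.6 and 9.32, and *Mbp* led both at 10.3 against 8.94. In whole tissue, fewer cells of a type and less RNA per cell cannot be told apart.

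As deposited, all 10 genes had a higher RPKM in the CvP than in the Epi, although *Acpp* and *P2ry2* lay below the median ratio of all genes. Of the 10, 4 had a CvP/Epi ratio above 3, *Calhm1*, *Entpd2*, *Panx1* and *P2rx4*, and none had a ratio below 1/3. Over all rows tested, 25.8% had a ratio above 3 and 4.64% one below 1/3. Many of those rows are low in both libraries. Among the 11620 rows with a mean RPKM of at least 1, a level that all 10 genes reached, the share above 3 was 13%. The criteria that the study used to pick taste tissue genes, a CvP RPKM above 10 together with a ratio above 3, were met by 3 of the 10, *Entpd2*, *Panx1* and *P2rx4*, against 2.46% of all rows. *Calhm1* missed the level and not the ratio. With 10 genes chosen for a role in taste, these counts describe the list and were not tested. The median log2 ratio of the 10, with 0.1 added to both values, was 1.20, between 0.19 for *Acpp* and 4.97 for *Calhm1*, beside 0.50 for all rows. When the ratios were divided by the median ratio of 1.31, those of *Acpp* and *P2ry2* fell to 0.867 and 0.931, so that the direction of these 2 genes depends on the scaling, and that of *P2rx4* fell to 2.97.

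**Figure D1:**
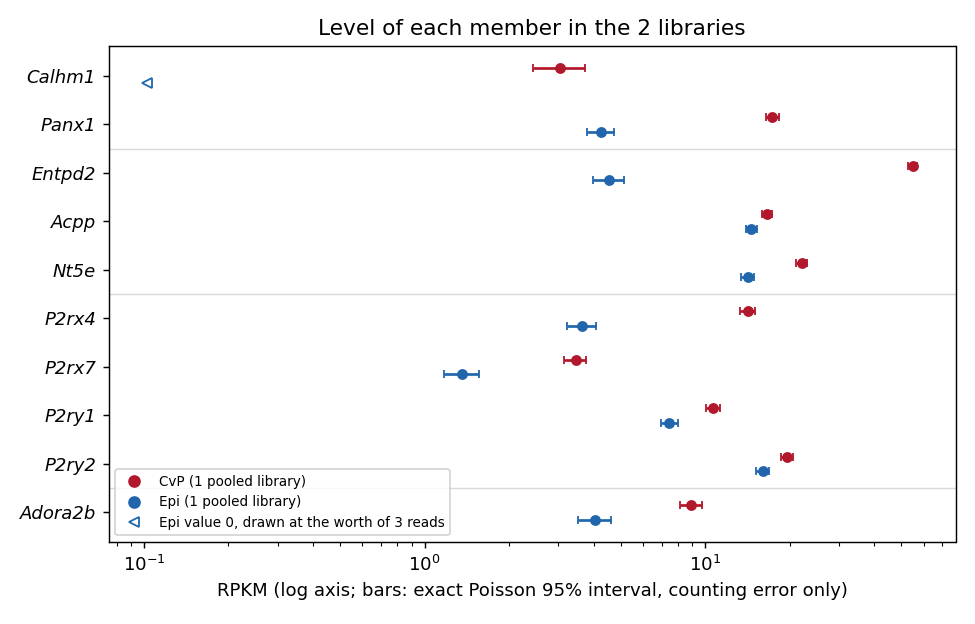
RPKM of the 10 genes in the CvP library (red) and the Epi library (blue) on a log axis, 1 pooled library each, with bars for the exact Poisson 95% interval, and grey lines between the genes of release, ATP and AMP breakdown, ATP and ADP receptors and the adenosine receptor. The red point lies to the right in each pair, widest apart for *Calhm1*, whose Epi value of 0 is drawn at the worth of 3 reads, and closest for *Acpp* at 16.6 and 14.6, where the order turns if ratios are divided by the median ratio, as it does for *P2ry2*.

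In the plot of levels, the CvP values ran from 3.03 for *Calhm1* to 54.8 for *Entpd2*, and the Epi values from 0 for *Calhm1* to 16.0 for *P2ry2*. The genes with the highest Epi levels, *P2ry2*, *Acpp* and *Nt5e*, were not those with the largest ratios.

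The sequence before the start site is shown for the genes with the largest ratios, *Calhm1* and *Entpd2*, and for the one with the smallest, *Acpp*, since these span the range of the comparison. Each is the 250 bases upstream of the RefSeq transcript start on the mouse assembly GRCm38.p6, which differs from the NCBI37/mm9 build of the deposited table, and the sequences are credited to RefSeq. They read 5′ to 3′ along the gene, with CG dinucleotides in capitals. *Calhm1* (chr19:47144175-47144424, minus strand) has 5 of them, *Entpd2* (chr2:25395624-25395873, plus strand) 9, and *Acpp* (chr9:104337723-104337972, minus strand) 5.
*Calhm1*: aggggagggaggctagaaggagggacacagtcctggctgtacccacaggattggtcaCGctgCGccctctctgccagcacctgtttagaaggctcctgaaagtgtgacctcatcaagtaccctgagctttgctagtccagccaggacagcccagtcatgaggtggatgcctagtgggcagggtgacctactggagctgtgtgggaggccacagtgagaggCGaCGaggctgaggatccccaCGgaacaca
*Entpd2*: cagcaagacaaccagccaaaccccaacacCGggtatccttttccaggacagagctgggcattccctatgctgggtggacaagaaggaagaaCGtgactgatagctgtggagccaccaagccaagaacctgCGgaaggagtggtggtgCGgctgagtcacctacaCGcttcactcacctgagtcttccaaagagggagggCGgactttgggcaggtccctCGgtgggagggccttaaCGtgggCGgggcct
*Acpp*: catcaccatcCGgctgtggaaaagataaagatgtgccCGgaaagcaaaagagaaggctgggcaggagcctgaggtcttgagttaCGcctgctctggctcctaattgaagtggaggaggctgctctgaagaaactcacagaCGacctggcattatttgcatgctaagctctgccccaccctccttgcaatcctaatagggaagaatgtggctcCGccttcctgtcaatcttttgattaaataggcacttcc
All 10 genes matched an entry of the promoter table, and *P2rx7* and *P2ry2* have 2 start sites each. The median of all 32841 promoters was 6 CG dinucleotides in 250 bases, with quartiles of 2 and 16. The other genes had from 4, at the second start of *P2rx7*, to 26, at the second start of *P2ry2*, and *Panx1*, *P2ry1*, *Nt5e* and *Adora2b* had 17, 20, 21 and 22. Of the 4 genes with a ratio above 3, *P2rx4* had 13, so that these genes lay between 5 and 17. The letters GGGCGG, the core of a GC box, were found on either strand before *Entpd2*, *P2ry1*, *P2ry2*, *Nt5e*, *Adora2b* and the first start of *P2rx7*, and in 32.7% of all promoters. The octamer ATGCAAAT was found before *Acpp* alone and in 1.6% of all promoters, and TATAAA, found in 12.4%, before none of the 10. None of the 3 motifs contains another, and these are matches of letters only.

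*Calhm1*, the pore-forming subunit of the ATP release channel of type II cells, was read in the CvP and not in the Epi. Its RPKM was 3.03 in the CvP (95% interval 2.44 to 3.72), about 90 reads, and 0 in the Epi, where 0 reads allow up to 0.126. No ratio can be given against 0, and the lower limit of its exact interval was 23.5. It sits on chromosome 19 (build NCBI37/mm9) from 47215525 to 47218664 on the minus strand, with 1 annotated transcript of 2 exons. Rows of similar level were those whose log2(RPKM + 0.1), averaged over both libraries, was within 1 unit of its own. Of these 2829 rows, 97.1% had a lower ratio, with 0.1 added to both values. With a pseudocount of 1 the ratio was 4.03, since the CvP level itself is low.

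The gene next to it, *Calhm2* of the same family, ends 2740 bases away and was read in both tissues, at 5.24 in the CvP against 2.07 in the Epi, for a ratio of 2.53 (95% interval 2.14 to 3.0). *Fam26e*, another gene of the CALHM family, had 7.38 in the CvP against 0.30 in the Epi, for a ratio of 24.6 (14.7 to 44.3). *Calhm1* was thus the CALHM gene with the lowest CvP level of these 3 and the one at 0 in the Epi. A further gene of the family, *Fam26f*, was lower still in the CvP, at 0.10 against 0.06 in the Epi, about 3 and 2 reads. *Calhm3* was not analysed here.

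The type II cell markers moved with *Calhm1*. Their summed RPKM was 392 in the CvP against 22.9 in the Epi, of which 21.9 was *Itpr3*, and *Gng13* was also at 0 in the Epi. Their part in the *Calhm1* result was not tested.

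*Panx1* encodes pannexin 1, a channel that lets ATP out of many cell types and that was once proposed as the release route in taste cells. It was read in both tissues, at 17.3 in the CvP (95% interval 16.4 to 18.3) against 4.24 in the Epi (3.78 to 4.73), about 1327 and 319 reads. The ratio was 4.09 (3.62 to 4.64), and 96.4% of the 4812 rows of similar level had a lower one. *Panx1* lies on chromosome 9 from 14810229 to 14849922 on the minus strand and has 4 annotated transcripts, 2 of them coding. Within the CvP its level per listed length was 5.72 times that of *Calhm1* (4.62 to 7.16). Of the other pannexins, *Panx2* had 0.39 and 0.20, and *Panx3* 0.02 and 0, which are at most 1 read.

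*Slc17a9*, the vesicular nucleotide transporter that loads ATP into vesicles, had 1.87 in the CvP against 0.11 in the Epi, about 121 and 7 reads, for a ratio of 17.0 (8.00 to 43.2). In all, 5 of the 8 release genes with a row had a ratio above 3 and none had one below 1/3, beside 25.8% and 4.64% of all rows. *Panx3* is 1 of these 5, with no more than 1 read in either library.

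*Entpd2*, the ATP-degrading enzyme of type I cells, had the highest level of the 10 in the CvP. Its RPKM was 54.8 in the CvP (95% interval 52.9 to 56.8) against 4.53 in the Epi (3.99 to 5.14), about 3010 and 245 reads, and the ratio was 12.1 (10.6 to 13.8). By RPKM it was number 872 of all rows in the CvP and number 6910 in the Epi. Of the 4032 rows of similar level, 99.4% had a lower ratio. The ratio stayed above 9 whether divided by the median ratio (9.22) or with a pseudocount of 1 (10.1).

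The length behind *Entpd2* bears on its level. The gene lies on chromosome 2 from 25251394 to 25256843 on the plus strand, a span of 5.45 kb. The table lists a length of 5.42 kb for it, close to the whole span, whereas its longest coding transcript of 9 exons has 1.935 kb. Divided by that transcript the CvP level would be 154 and the Epi level 12.7, and the ratio between the libraries would be the same. These levels place all reads implied by the listed length, about 8430 and 685, on that transcript. The 3010 and 245 reads given above were estimated with the shorter length, so the true read number is not known. Of its 2130 exon bases, 612 are shared with 2 transcripts of *Npdc1* on the same strand, so some reads may belong to that gene, whose own row had 24.5 in the CvP against 9.44 in the Epi.

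The make-up of the cell surface NTPDases differed between the tissues. *Entpd3*, the NTPDase3 gene, had 20.4 in the CvP against 8.68 in the Epi, for a ratio of 2.35 (2.16 to 2.55). In the CvP, *Entpd2* was 2.69 times as high as *Entpd3* (2.54 to 2.85), and in the Epi it was 0.522 times as high (0.452 to 0.604). Per longest coding transcript these values were 4.04 and 0.783, so *Entpd2* led in the CvP and *Entpd3* in the Epi on both scales. *Entpd2* held 68.6% of the summed RPKM of *Entpd1*, *Entpd2*, *Entpd3* and *Entpd8* in the CvP, and 34.0% in the Epi.

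*Entpd1*, the NTPDase of blood vessels and leukocytes also known as CD39, had 3.76 in the CvP against 0.05 in the Epi, for a ratio of 75.2 (33.5 to 201). Markers of leukocytes, and some of blood vessels, were higher in the CvP as well. Of 8 immune markers 7 had a ratio above 3, and their summed RPKM was 157 in the CvP against 7.07 in the Epi. One of the 7, *Cd3e*, was at 0 in the Epi and rested on about 6 reads in the CvP. *Lyz2* led in the CvP at 132 against 0.43, and *Cd68* in the Epi at 4.45 against 10.8 in the CvP. Of 5 endothelial markers 2 were above 3, with summed values of 7.28 and 0.36 and none at 0. *Cdh5*, at 0.02 against 0.06 and 7 reads or fewer, went the other way. *Vwf* was the highest in the CvP at 4.45 against 0.09, and *Pecam1* in the Epi at 0.12 against 0.28. Their part in these results was not tested. *Entpd8* was near the floor in the Epi, at 0.05 against 0.99 in the CvP.

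The type I markers beside *Entpd2* were mixed. Of 4, *Kcnj1* had 13.5 in the CvP against 0 in the Epi, *Oxtr* was above 3 as well, and *Slc1a3* was lower in the CvP, at 1.04 against 3.82. Their summed RPKM was 23.1 in the CvP against 6.21 in the Epi, and their part in the *Entpd2* result was not tested.

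**Figure D2:**
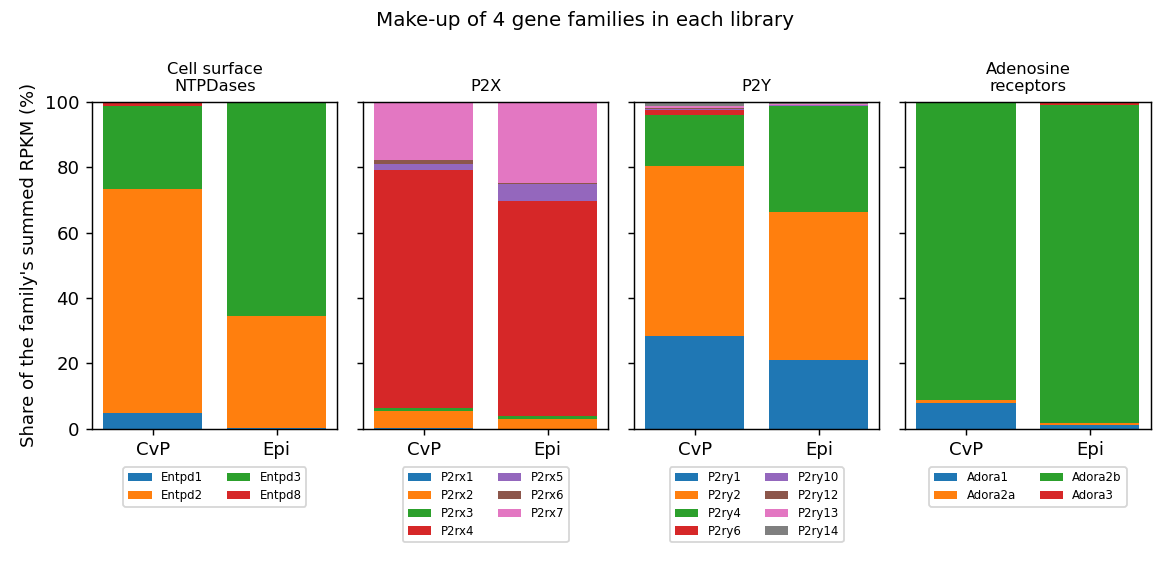
Share of the summed RPKM of each of 4 families (y axis, percent) held by each gene in the CvP and the Epi, 1 pooled library each, stacked bars. *Entpd2* fills 68.6% of the surface NTPDase bar in the CvP and 34.0% in the Epi, where *Entpd3* holds 65.2%, while *P2rx4* and *Adora2b* hold the largest share of their families in both.

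*Nt5e* and *Acpp* form adenosine from AMP. *Nt5e*, also known as CD73, had an RPKM of 22.0 in the CvP (95% interval 21.1 to 23.0) against 14.2 in the Epi (13.4 to 14.9), about 2237 and 1413 reads. Its ratio was 1.56 (1.46 to 1.67), and 76.9% of rows of similar level had a lower one. It lies on chromosome 9 from 88222447 to 88266927 on the plus strand, with 1 annotated transcript of 9 exons. *Acpp* had 16.6 in the CvP (15.9 to 17.3) against 14.6 in the Epi (13.9 to 15.3), about 2111 and 1824 reads. Its ratio of 1.14 (1.07 to 1.21) was the lowest of the 10, 39.0% of rows of similar level had a lower one, and it fell below 1 when divided by the median ratio. *Acpp* lies on chromosome 9 from 104190570 to 104240052 on the minus strand and has 5 annotated transcripts, 2 of them coding.

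Both AMP-cleaving enzymes had Epi levels above that of *Entpd2*, per listed length and per longest coding transcript. Per listed length, *Nt5e* was 1.33 times as high as *Acpp* in the CvP (1.25 to 1.41) and 0.971 times as high in the Epi (0.904 to 1.04), where the 2 could not be told apart. Per longest coding transcript the values were 0.865 and 0.633, so which of the enzymes is higher in the CvP depends on the length used. The level of *Entpd2* was 2.49 times that of *Nt5e* in the CvP (2.36 to 2.63) and 0.320 times in the Epi (0.279 to 0.368), and the order was the same per transcript length, at 5.90 and 0.759.

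Of the 15 genes with a row in the ectonucleotidase list, *Entpd2*, *Nt5e* and *Acpp* among them, 7 had a ratio above 3 and none had one below 1/3, where all rows had 25.8% and 4.64%. Besides *Entpd2*, *Entpd1* and *Entpd8* these were 3 members of the pyrophosphatase and phosphodiesterase family and an alkaline phosphatase. *Enpp3* had 11.1 in the CvP against 0.11 in the Epi, for a ratio of 101 (50.8 to 212). *Enpp2*, the secreted enzyme autotaxin, had 5.23 and 0.10, and *Enpp4* had 1.96 and 0.04. *Alpl*, tissue-nonspecific alkaline phosphatase, had 0.51 and 0.05. In the Epi these 4 genes stood at 9 reads or fewer each. The genes *Alppl2* and *Akp3* of the same list were not analysed here. The list also holds *Entpd4*, *Entpd5*, *Entpd6* and *Entpd7*, which are not among the cell surface NTPDases above. Their ratios were 1.68, 1.89, 1.57 and 2.49, and *Entpd5* was the highest gene of the list in both libraries, at 78.4 and 41.4.

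*P2rx4* and *P2rx7* encode ATP-gated cation channels of the P2X family, found in epithelia and in immune cells. *P2rx4* had an RPKM of 14.2 in the CvP (95% interval 13.3 to 15) against 3.63 in the Epi (3.21 to 4.10), about 1069 and 270 reads. Its ratio was 3.90 (3.40 to 4.47), which overlaps that of *Panx1*, and 95.5% of the 4840 rows of similar level had a lower one. Divided by the median ratio it was 2.97, just under the limit of 3. *P2rx7* had 3.45 in the CvP (3.15 to 3.77) against 1.36 in the Epi (1.17 to 1.57), about 483 and 187 reads. Its ratio was 2.54 (2.14 to 3.02), so that the limit of 3 lay inside the interval, and 71.5% of 3469 rows of similar level had a lower ratio. With RPKM rescaled to the same sum in both libraries it was 3.06.

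The pair are neighbours on the plus strand of chromosome 5. *P2rx7* lies from 123093920 to 123141441 and *P2rx4* from 123157566 to 123179051, with 16124 bases between them. The intervals of their ratios did not overlap, nor did those of their levels in either tissue. *P2rx4* was 4.10 times as high as *P2rx7* in the CvP (3.68 to 4.58) and 2.67 times in the Epi (2.21 to 3.24). Of the 8 immune markers 7 were above 3, with summed values of 157 and 7.07, and *Lyz2* alone made up 132 of the 157. They moved in the same direction as both genes, and their part was not tested. The immune marker with the smallest ratio was *Cd68*, at 2.43 (2.0 to 2.94).

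The channels of the taste nerve were low in the tissue. *P2rx2* had 1.05 in the CvP against 0.17 in the Epi, about 57 and 9 reads, for a ratio of 6.18 (3.06 to 14.3). *P2rx3* had 0.16 and 0.04, about 8 and 2 reads, and the interval of its ratio reached from 0.785 to 38.0. The cell bodies of the taste nerve lie in cranial ganglia outside the tongue. *P2rx5* had 0.34 and 0.28, a ratio of 1.21 (0.615 to 2.38), and no difference was detectable at this depth. Of the summed RPKM of the 7 P2X genes, *P2rx4* held 72.9% in the CvP and 65.9% in the Epi, and *P2rx7* held 17.8% and 24.7%. In this family 5 of 7 genes had a ratio above 3, against 25.8% of all rows. Of the 5, *P2rx4* alone had a mean RPKM of at least 1, and *P2rx1* and *P2rx6* rested on 2 and 16 reads in the CvP.

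*P2ry1*, the ADP receptor P2Y1, and *P2ry2*, the receptor P2Y2 for ATP and UTP, are coupled to G proteins and raise calcium in the cell. *P2ry1* had an RPKM of 10.7 in the CvP (95% interval 10.1 to 11.3) against 7.45 in the Epi (6.95 to 7.98), about 1176 and 808 reads, and a ratio of 1.43 (1.31 to 1.57). *P2ry2* had 19.6 in the CvP (18.6 to 20.5) against 16.0 in the Epi (15.2 to 16.9), about 1665 and 1339 reads, and a ratio of 1.22 (1.14 to 1.32), which fell below 1 when divided by the median ratio. These ratios lay in the middle of those of similar rows, where 56.5% were lower than that of *P2ry1* and 50.9% lower than that of *P2ry2*. *P2ry1* lies on chromosome 3 from 60806717 to 60812901 on the plus strand and *P2ry2* on chromosome 7 from 108145086 to 108160505 on the minus strand. Each has 1 annotated transcript.

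*P2ry4*, another receptor for ATP and UTP, was the only other P2Y gene above an RPKM of 1, and it went the other way. It had 5.82 in the CvP against 11.5 in the Epi, for a ratio of 0.507 (0.463 to 0.555). *P2ry2* was accordingly 3.36 times as high as *P2ry4* in the CvP (3.08 to 3.67) and 1.39 times in the Epi (1.29 to 1.5), and 7.38 and 3.06 times per transcript length. *P2ry2* was 1.83 times as high as *P2ry1* in the CvP (1.70 to 1.98) and 2.15 times in the Epi (1.97 to 2.35). Of the summed RPKM of the 8 P2Y genes, which was 37.6 in the CvP against 35.4 in the Epi, *P2ry2* and *P2ry1* held 52.1% and 28.4% in the CvP and 45.2% and 21.0% in the Epi. *P2ry4* held 15.5% and 32.4%. Per longest coding transcript *P2ry4* held 8.77% in the CvP against 19.6% in the Epi, where *P2ry1* held 19.5%. The order of these receptors in the Epi was thus the same, but the lead of *P2ry4* over *P2ry1* depends on the length. Of the 8 P2Y genes 2 had a ratio above 3 and none had one below 1/3, beside 25.8% and 4.64% of all rows. These 2, *P2ry6* and *P2ry13*, had 0.51 and 0.21 in the CvP.

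*Adora2b*, the A2B adenosine receptor, which has been linked to sweet taste cells of the posterior tongue, had an RPKM of 8.89 in the CvP (95% interval 8.10 to 9.74) against 4.04 in the Epi (3.51 to 4.63). These are about 465 and 208 reads. Its ratio was 2.20 (1.86 to 2.60), which overlaps that of *P2rx7*, and 82.5% of the 4774 rows of similar level had a lower one. It lies on chromosome 11 from 62062486 to 62079954 on the plus strand, with 1 annotated transcript of 2 exons, and its listed length of 1.844 kb matches that transcript of 1.845 kb. *Adora2b* held 91.2% of the summed RPKM of the 4 adenosine receptors in the CvP and 97.1% in the Epi. *Adora1*, a receptor that lowers cyclic AMP where A2B raises it, had 0.77 and 0.05, about 126 and 8 reads, for a ratio of 15.4 (7.63 to 36.7), so *Adora2b* was 11.5 times as high as *Adora1* in the CvP (9.48 to 14.2) and 80.8 times in the Epi (40.6 to 191). *Adora2a* had 0.08 and 0.03, at 6 reads or fewer. *Adora3* had no more than 3 reads in either tissue and is given no fold.

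The enzyme that removes adenosine showed the largest shift towards the Epi among the pathway genes. *Ada*, adenosine deaminase, had 430 in the CvP against 2254 in the Epi, for a ratio of 0.191 (0.188 to 0.193). The 69 rows of similar level had a median log2 ratio of -0.52, and 2.90% of them had a lower ratio than *Ada*. Of the 6 markers of stratified epithelium, 3 were below 1/3 and none was at 0, with summed values of 32419 and 82659. As a sum they moved the same way as *Ada*, while *Krt5* alone went the other way, at 1506 against 1271. Their part was not tested. The nucleoside transporter *Slc29a1* had 3.45 and 2.26, a ratio of 1.53 (1.23 to 1.90), close to that of *Nt5e*. Of the 11 genes of adenosine enzymes and transport, 2 had a ratio above 3, both below an RPKM of 1 in the CvP. In this list 1 gene had a ratio below 1/3, and *Slc28a1* was at 0 in both libraries. Over all rows the shares were 25.8% above 3 and 4.64% below 1/3.

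**Figure D3:**
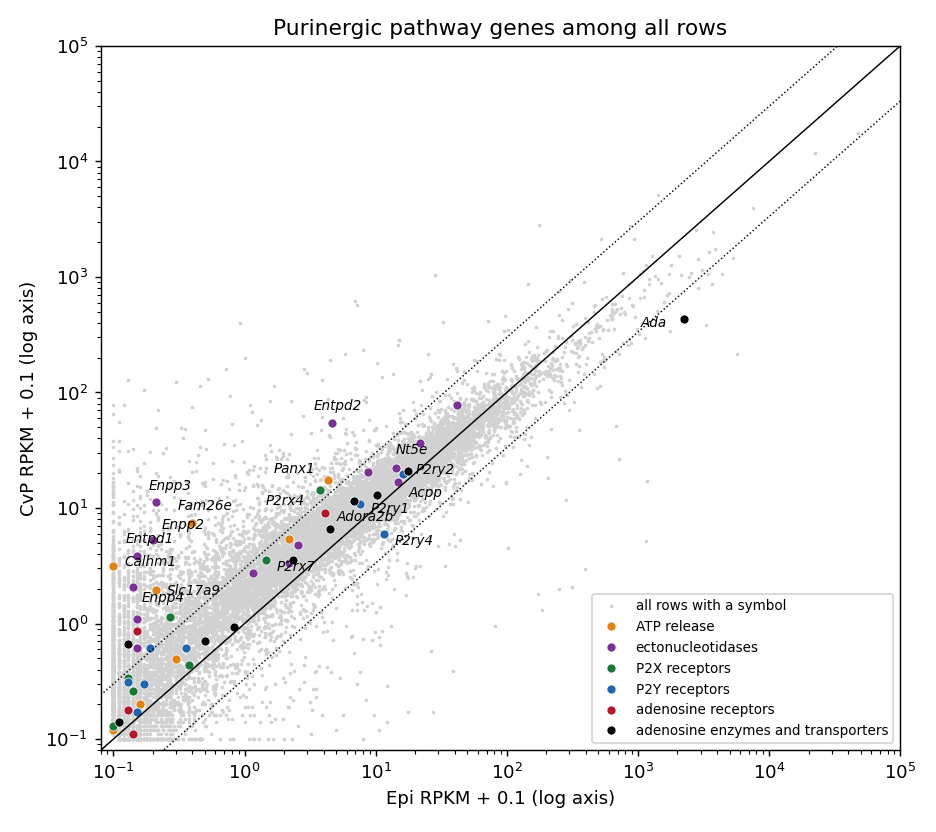
RPKM + 0.1 in the Epi (x, log axis) and the CvP (y, log axis) for all rows with a symbol (grey) and the pathway genes (coloured by group), with a solid line at equal values and dotted lines at a 3-fold difference either way. *Entpd2*, *Panx1*, *P2rx4* and *Calhm1* lie above the upper dotted line, the receptors *P2ry1* and *P2ry2* and the enzymes *Nt5e* and *Acpp* near the solid one, where *Acpp* and *P2ry2* pass to the other side if ratios are divided by the median ratio, and *Ada* lies below the lower dotted line.

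By role, the ratios fell in the order shown in the plot of ratios. The release channels and *Entpd2* came first, then *P2rx4*, *P2rx7* and the adenosine receptor, and last the AMP-cleaving enzymes and the P2Y receptors. Neighbours whose intervals overlapped were *Panx1* with *P2rx4*, *P2rx7* with *Adora2b*, *Nt5e* with *P2ry1*, *P2ry1* with *P2ry2*, and *P2ry2* with *Acpp*. The interval of *Entpd2* overlapped no other, and the lower limit of *Calhm1* lay above its upper limit. The interval lay wholly above 3 in *Calhm1*, *Entpd2*, *Panx1* and *P2rx4*.

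**Figure D4:**
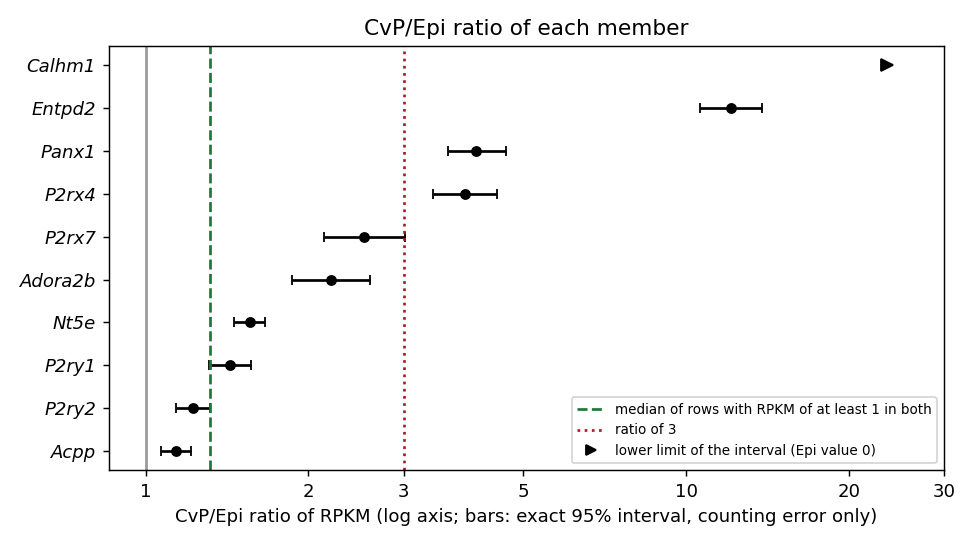
CvP/Epi ratio of RPKM of the 10 genes on a log axis, with exact 95% intervals for counting error and lines at 1 (grey), at the median ratio of 1.31 (green, dashed) and at 3 (red, dotted), and an arrow at the lower limit of 23.5 for *Calhm1*. The ratios of *P2ry2* (1.22) and *Acpp* (1.14) lie above 1 but below the median ratio, and the bar of *P2rx7* reaches the line at 3.

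By level, the order in the CvP was *Entpd2*, *Nt5e*, *P2ry2*, *Panx1*, *Acpp*, *P2rx4*, *P2ry1*, *Adora2b*, *P2rx7* and *Calhm1*. In it, *Panx1* and *Acpp* had overlapping intervals, as had *P2rx7* and *Calhm1*. In the Epi, *P2ry2*, *Acpp* and *Nt5e* came first with each overlapping the next, then *P2ry1*, then *Entpd2*, *Panx1*, *Adora2b* and *P2rx4* with each overlapping the next, and then *P2rx7* and *Calhm1*. The summed RPKM of the 10 was 171 in the CvP against 69.98 in the Epi, and *Entpd2* accounted for the largest part of the sum in the CvP and *P2ry2* in the Epi.

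The order among genes depends on the lengths. The listed length of 9 of the 10 was longer than the longest coding transcript, by up to 2.80 times in *Entpd2*, 2.53 times in *P2ry2* and 2.13 times in *Panx1*. For *P2ry1* the listed 6.836 kb even exceeded the 6.185 kb span of the gene, so the listed lengths are not lengths of annotated exons alone. Per longest coding transcript *Entpd2* stayed first in the CvP at 154, *P2ry2* followed at 49.4 and *Panx1* came next at 36.8. *Acpp* at 30.1 then stood above *Nt5e* at 26.0, and *Calhm1* at 4.56 above *P2rx7* at 3.77. In the Epi *P2ry2* stayed first at 40.4, and *P2rx4* at 5.35 moved above *Adora2b* at 4.04. The ratios between the libraries do not change with the length.

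Over all 53 pathway genes with a row, 22 had a ratio above 3 and 2 one below 1/3, and of the 43 that are not among the 10, 18 and 2, beside shares of 25.8% and 4.64% over all rows. Of the 29 with a mean RPKM of at least 1 there were 9 and 1, where all rows of that level had 13% and 1.64%. These 9 were *Calhm1*, *Panx1*, *Entpd2*, *P2rx4*, *Fam26e*, *Entpd1*, *Enpp2*, *Enpp3* and *Enpp4*, and the 1 was *Ada*. The median log2 ratio was 1.65 for the release genes, 1.24 for the ectonucleotidase list, 1.28 for the P2X genes, 0.64 for the P2Y genes, 0.79 for the adenosine receptors and 0.43 for adenosine enzymes and transport, beside 0.50 for all rows. No median is an independent finding, since the lists were made with earlier results of these data known.

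**Figure D5:**
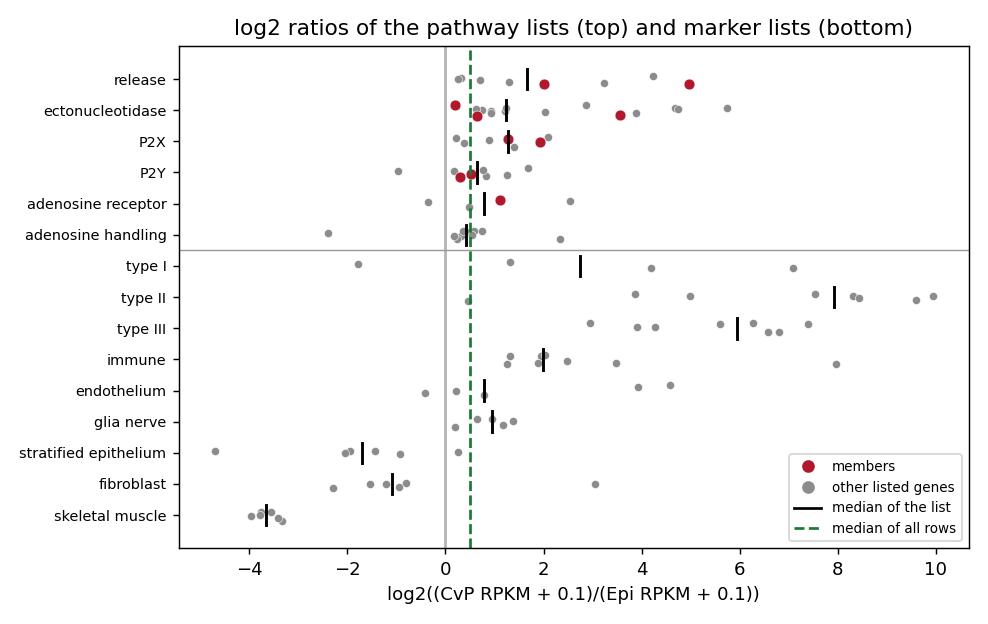
log2 ratio of each gene, with 0.1 added to both values, in 6 pathway lists (above the line) and 9 marker lists (below it), with the 10 genes in red, other genes in grey, black bars at list medians and a dashed line at the median of all rows, 0.50. The release list has the highest pathway median, 1.65, below the medians of the immune markers (1.99) and of the markers of the 3 taste cell types. The skeletal muscle list has the lowest median of the lists drawn, and *P2ry2* and *Acpp* lie left of the dashed line.

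In the annotation of the build, GENCODE M1, no exon of the other 9 genes overlapped an exon of another gene on either strand. Among coding transcripts, no 75-base window of the 10 genes, as long as a read, was found in a transcript of another gene. The *Npdc1* transcripts that share exon bases with *Entpd2* are not coding and were outside this search. Sequence beyond the annotated exons, which the longer listed lengths may hold, was not searched either. Reads of the 10 genes, *Entpd2* among them, are therefore not shown to be unique.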

How the data were processed

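RNA of the CvP and the Epi, 1 pooled library each, was made into poly(A) libraries and sequenced as single-end reads. Per the submitters' processing notes the authors mapped reads with Bowtie 0.12.7 to mm9, and by the study's methods they obtained RPKM values per gene with ERANGE. Its options, and the treatment of reads with several matches, are not given in the sources used here. The deposited table holds RPKM in both tissues, a length in kb, KEGG pathway names and the authors' own CvP/Epi ratio, which was not used. No sample column was left unmatched.

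Depth was found as the number of mapped reads that made RPKM of short, low rows whole: rows of 0.1 kb stepped by 0.353 in the CvP and 0.358 in the Epi, and of low rows of up to 0.5 kb and 20 reads 96.4% of 335 and 97.4% of 308 were within 0.1 of a whole read. Approximate reads per gene came from RPKM, depth and a length, either the listed one or that of the longest GENCODE M1 coding transcript, whichever was shorter. Levels per longest coding transcript instead place all reads implied by the listed length on that transcript. Levels were given exact Poisson and ratios exact Clopper-Pearson 95% intervals, with a floor of 3 reads. Ratios used the deposited RPKM with no pseudocount and log2 ratios used RPKM + 0.1, so that changes of low genes are understated. An RPKM of 0 in the Epi counted as a ratio above 3. Rows of similar level had a log2(RPKM + 0.1), averaged over both libraries, within 1 unit, and their ratios were compared with 0.1 added to both values. With 1 library per tissue no test was made, and genes of like pattern were not sought, since 2 libraries give 1 ratio per gene. The depth estimate, the ratio intervals and the limit on the ratio were tested on simulated counts, and the other steps were not. The simulation used the listed length, and the intervals and the limit were checked on rows well above 0 in the Epi. It did not cover the shorter length or an Epi value of 0, as in *Calhm1*.

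The 10 genes, the pathway and marker lists and the limits were chosen with earlier results of these data known. Named were all 10 genes, pathway genes with a mean RPKM of at least 1 and a ratio above 3 or below 1/3, 14 further pathway genes whatever their values, and the highest gene of each marker list in each library. Other genes (*Calhm2*, *Fam26f*, *Entpd4*, *Entpd5*, *Entpd6*, *Entpd7*, *P2ry4*, *P2ry6*, *P2ry13*, *P2rx1*, *P2rx6*, *Adora3*, *Slc28a1*, *Npdc1*, *Gng13*, *Oxtr*, *Krt5*, *Cdh5* and *Cd3e*) were named after their values were seen. *Fam26d* of the release list and *Ncmap* and *Prol1* of the marker lists were not analysed here. Python 3.11.15, numpy 2.4.6, pandas 2.3.3, scipy 1.17.1 and matplotlib 3.10.9 were used.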

Additional observations from a re-analysis of the deposited data

How the results depend on the processing

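No paired analysis was possible because the CvP and the Epi had 1 pooled library each and nothing was tested. Leaving out a replicate was not possible for the same reason. Of the alternatives run for the counts, the median and the ratios, 55 counts stayed within 1.5 times of the reported one or values within its counting interval, 31 moved further and 2 changed direction. Some of the 55 were fixed in advance. For each of the 10 genes the listed length behind the reads was labelled as unchanged, since a ratio does not change with the length. A minimum mean RPKM of 1 could not change the results of the 10, which all reach it. Among the 55, the 4 genes above 3 became 6 at a limit of 2, and the lower limit of *Calhm1*, 23.5, became 35.8 with the listed length and 28.4 at the same sum, and its ratio with a pseudocount of 0.1 was 31.3. The 4 genes with a ratio above 3 became 2 at a limit of 5, and the 3 that met both criteria became 1 at a limit of 5 or a CvP minimum of 20, as stricter limits do. Of the pathway genes, the 22 above 3 became 8 with a pseudocount of 1 and 9 with a mean RPKM of at least 1, and the 2 below 1/3 became 1 under each of these and at a limit of 5, since low genes drop out. Divided by the median ratio, the median log2 ratio of 1.20 became 0.81, and *Acpp* at 0.867 and *P2ry2* at 0.931 changed direction. On that scale *Calhm1* was at a lower limit of 17.9, *Entpd2* at 9.22, *Panx1* at 3.11, *P2rx4* at 2.97, *P2rx7* at 1.93, *Adora2b* at 1.68, *Nt5e* at 1.19 and *P2ry1* at 1.09. Rescaled to the same sum, which multiplies each ratio by 1.21, *Entpd2* was at 14.6, *Panx1* at 4.93, *P2rx4* at 4.70, *P2rx7* at 3.06, *Adora2b* at 2.65, *Nt5e* at 1.88, *P2ry1* at 1.73, *P2ry2* at 1.47 and *Acpp* at 1.37. With a pseudocount of 1, *Entpd2* was at 10.1, *Calhm1* at 4.03, *Panx1* at 3.50, *P2rx4* at 3.27 and *P2rx7* at 1.89, since a pseudocount lowers ratios most where the Epi value is low. Of all rows past 3-fold either way, 84.8% were higher in the CvP as deposited, 79.1% after division by the median ratio and 88.0% at the same sum. Per longest coding transcript, an alternative added after the data were seen, 15 of the 20 levels moved by more than counting error and no ratio did. Depth sets a lower limit in place of a ratio for *Calhm1*.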

Other observations

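Purines also serve as building blocks and as second messengers, and the deposited table marks 153 rows with a value above 0 as KEGG purine metabolism, *Entpd2* and *Nt5e* among them. Of these, 32 (20.9%) had a CvP/Epi ratio above 3 and 6 (3.92%) one below 1/3, beside 25.8% and 4.64% of all rows, and their median log2 ratio was 0.49. Families in it were counted without a test of the difference between them. Of 22 phosphodiesterases, which break down cyclic nucleotides, 11 were above 3 and 2 below 1/3. The 4 of the 11 with a mean RPKM of at least 1 were *Pde9a* at 10.7 in the CvP against 0.82 in the Epi, *Pde5a* at 4.07 and 0.69, *Pde2a* at 3.86 and 0.11, and *Pde4d* at 2.98 and 0.41. Of 10 adenylate cyclases, which make cyclic AMP, 2 were above 3, and *Adcy1* had 2.02 and 0.06, a ratio of 33.7 (95% interval 21.3 to 53.4). *Adcy8* went the other way, at 0.13 in the CvP against 2.11 in the Epi, for a ratio of 0.0616 (0.0375 to 0.10). Of 24 RNA polymerase subunits, which every cell uses, none was above 3 or below 1/3, and of 7 nucleoside diphosphate kinases 1 was above 3 and none below 1/3. These genes were picked after their values were seen, the values rest on 1 library per tissue and no test was made.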
